A study of Mus musculus with 4 samples.

Results

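The 35 genes described here encode glucose and monocarboxylate carriers, the glycolytic enzymes, lactate dehydrogenase subunits, a pyruvate dehydrogenase kinase, phosphoglucomutases and pentose phosphate enzymes. They were taken by symbol from a list, out of 26286 genes in the count table. All 35 were found, and all 35 passed the filter on low counts. The gene now called Pkm stands in the files as Pkm2.

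Glycolysis breaks glucose down to pyruvate in the cytosol, and the pentose phosphate pathway branches off after the first phosphorylation to yield NADPH and ribose 5-phosphate for nucleotides. Several steps are catalysed by isoenzymes, products of different genes that differ in regulation and tissue. Blood stem cells are known to rely on glycolysis under the control of hypoxia-inducible factors, and they hold pyruvate back from mitochondria through pyruvate dehydrogenase kinases.

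RNA sequencing was done on sorted LSK cells (Lin-Sca+Kit+) of mouse bone marrow, the gate for blood stem cells and early multipotent cells. Both groups were on the C57BL/6 strain, and they comprised 2 libraries with Hhex deletion and 2 wild-type libraries. Hhex encodes a homeobox transcription factor. Age, sex, the way the deletion was made and whether the libraries came from separate mice are not given in the labels. The tests therefore weigh differences against the spread of these libraries alone, whatever its sources.

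The libraries labelled Hhex-deleted held 29501591 and 29372938 counts in total, against 27871827 and 28584399 in wild-type. Hhex itself had 179 and 188 CPM (counts scaled to library size) in the libraries labelled Hhex-deleted, against 127 and 115 CPM in wild-type. By edgeR, Hhex passed the threshold as higher in the libraries labelled Hhex-deleted (log2 fold change 0.60, SE 0.09, adjusted p = 0.0271). A gene-level count can include exons outside a deletion. Why the Hhex count was higher was not tested, so directions refer to libraries as labelled. Labelled Hhex-deleted replicate 1 stood apart in Xist, the transcript that silences an X chromosome in females, with 2662 CPM, whereas replicate 2 of that group had 2.59 CPM and the wild-type libraries 2.66 and 1.89 CPM. The Y-linked gene Ddx3y had 0.343 CPM in labelled Hhex-deleted replicate 1, whereas replicate 2 of that group had 138 CPM and the wild-type libraries 134 and 124 CPM, and Eif2s3y, Kdm5d and Uty were likewise near 0 in that library alone. The libraries labelled Hhex-deleted thus differed from each other in sex-linked transcripts. Of the LSK markers, Kit stood at 605 and 698 CPM in the libraries labelled Hhex-deleted and at 566 and 601 CPM in wild-type. Ly6a, the Sca-1 gene, stood at 20.7 and 42.5 CPM (labelled Hhex-deleted) against 25.4 and 25.4 CPM (wild-type). Of the 8 T lineage markers, Cd3e, Cd3d, Cd3g and Cd8a had 17 or fewer reads in every library. Together with Cd4, Lck, Cd2 and Thy1 they summed to 28.5 and 49.8 CPM (labelled Hhex-deleted) against 31.7 and 33.3 CPM (wild-type). Of the 4 markers tested, 1 was higher at an unadjusted p under 0.05 by edgeR, against 7.59% of all genes. After adjustment 0 passed with edgeR, DESeq2 or limma-voom.

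The sequences shown first bear on how far a read can be assigned to its gene. Glycolytic genes have many processed copies in the mouse genome, and Gapdh, the gene of glyceraldehyde phosphate dehydrogenase on chromosome 6, differs from the annotated pseudogene Gm12070 on chromosome 11 at 1 of the 1002 bases compared. A stretch of 60 bases around that difference, from the GENCODE M21 transcripts, is shown, which is bases 409 to 468 of the longest open reading frame of Gapdh, with the differing base in capitals. The difference is G439A, with the base of Gapdh first, the position counted from the first base of that frame, and the base of Gm12070 last.
Gapdh: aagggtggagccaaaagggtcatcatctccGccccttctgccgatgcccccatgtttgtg
Gm12070: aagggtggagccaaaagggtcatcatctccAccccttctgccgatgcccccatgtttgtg

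A further set shows promoters of the members with the widest difference between groups, Slc16a3 and Pfkfb4, and of Ldha, whose level was close to equal, at that of its 2 starts with more matches. The sequences are RefSeq windows of 300 bases, 250 before and 50 after the start of the gene, on GRCm38.p6. Capitals mark ACGTG and GCGTG, the core of the hypoxia response element, on either strand. The E-box CACGTG, which Myc and Max bind, contains ACGTG on both strands.
Slc16a3, chr11:120948817-120949116, plus strand: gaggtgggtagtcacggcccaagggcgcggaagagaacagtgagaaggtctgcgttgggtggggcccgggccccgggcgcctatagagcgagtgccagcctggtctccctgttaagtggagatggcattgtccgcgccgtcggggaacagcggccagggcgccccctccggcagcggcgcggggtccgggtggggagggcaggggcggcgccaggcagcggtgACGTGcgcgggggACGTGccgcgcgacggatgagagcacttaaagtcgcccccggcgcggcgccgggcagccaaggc
Pfkfb4, chr9:108991652-108991951, plus strand: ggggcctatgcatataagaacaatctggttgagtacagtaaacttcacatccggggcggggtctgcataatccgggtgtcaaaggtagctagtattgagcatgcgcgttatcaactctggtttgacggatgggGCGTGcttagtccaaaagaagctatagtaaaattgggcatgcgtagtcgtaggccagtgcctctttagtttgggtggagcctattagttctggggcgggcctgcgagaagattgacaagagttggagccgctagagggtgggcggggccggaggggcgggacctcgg
Ldha, chr7:46845554-46845853, plus strand: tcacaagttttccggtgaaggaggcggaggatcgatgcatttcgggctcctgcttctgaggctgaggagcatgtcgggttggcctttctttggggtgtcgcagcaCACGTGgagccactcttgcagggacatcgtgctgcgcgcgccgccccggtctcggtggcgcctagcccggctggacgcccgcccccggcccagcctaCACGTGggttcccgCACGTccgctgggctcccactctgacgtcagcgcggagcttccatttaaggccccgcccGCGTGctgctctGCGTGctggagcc

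A promoter sequence was found for 34 of the 35 members, in 50 windows because some genes have several starts. Of these windows 80.0% held ACGTG or GCGTG on either strand, against 43.8% of all 32851 promoter windows. The windows compared were not matched for base composition or for expression in these cells, and some windows of the same gene overlap. What lies behind the gap was not tested. The E-box CACGTG was in 5 of the 50 windows, or 10%, against 7.15% of all windows. The Slc16a3 window held 2 matches of the core, the Pfkfb4 window 1 and the Ldha window shown 7, in which each of its 2 E-boxes counts on both strands. Ldha has a further start, at chr7:46846832-46847131 on the plus strand, whose window held 2 matches of the core and 0 E-boxes.

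Across the 35 members, most stood at slightly lower values in the libraries labelled Hhex-deleted, and no member passed edgeR's test in either direction after Benjamini-Hochberg adjustment over all genes. Over all 14912 genes tested, 1.48% passed as higher and 1.12% as lower. At an unadjusted p under 0.05, 17 members were lower and 1 was higher, against 8.23% and 7.59% of all genes. In 22 members both libraries labelled Hhex-deleted lay below both wild-type libraries, and in 5 members above, against 23.7% and 21.9% of all genes. The median log2 fold change of the members was -0.20, against -0.01 over all genes tested, and members ran from -1.06 for Slc16a3 to 0.19 for Hk1. The expression of a gene here is the content of RNA in a bulk sample, in which fewer cells of a type and less RNA per cell cannot be told apart.

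The absence of calls depended on the tool. DESeq2 called 9 members lower and 0 higher, against 3.46% and 3.36% of the 14662 genes to which it gave an adjusted p, and limma-voom called 0 in either direction, against 0.999% lower and 1.25% higher. The 9 members were Gpi1, Pfkfb4, Pgam1, Eno1, Pkm2, Slc16a3, Pgd, Rpia and Tkt. With no filter on low counts, edgeR called 2 members lower, against 272 of all 19482 genes. With a library left out, the median log2 fold change of the members ran from -0.28 to -0.15. That of all genes tested ran from -0.013 to 0.0051.

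**Figure D1:**
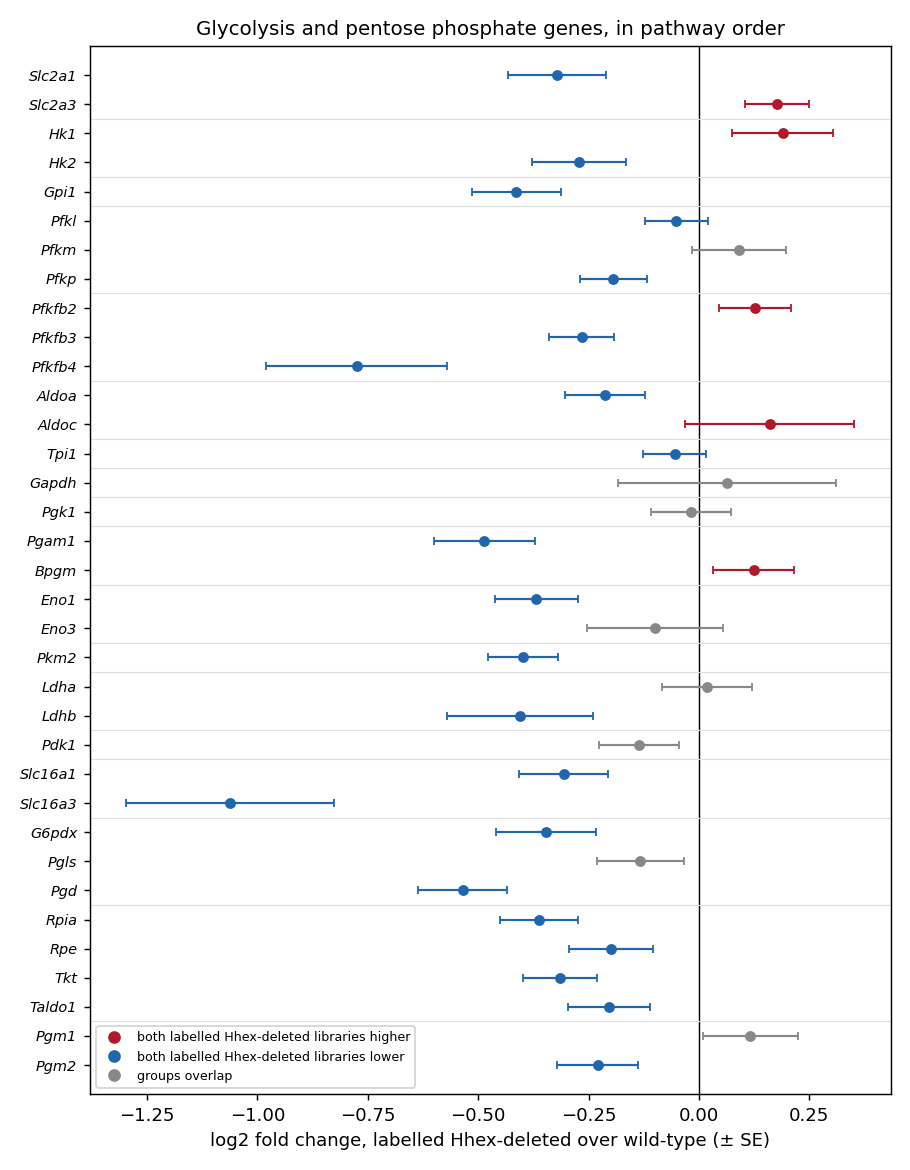
Fitted log2 fold change of each of the 35 members, labelled Hhex-deleted over wild-type, in pathway order from glucose carriers at the top to phosphoglucomutases at the bottom, with bars of 1 SE. Blue points (22) have both libraries labelled Hhex-deleted below both wild-type libraries, red points (5) above, and grey points overlap. Slc16a3 at -1.06 and Pfkfb4 at -0.78 lie farthest to the left.

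Levels are given as RPKM, reads scaled to gene length and to library size by TMM, so that genes of different length can be set side by side. Ldha had the highest RPKM of the members, with a mean of 306 over the 4 libraries, and was followed by Tkt with 289, Aldoa with 238 and Taldo1 with 198. At the low end stood Aldoc with 3.88, Pfkfb2 with 5.09, Slc16a3 with 5.28 and Gapdh with 5.39 RPKM. Ldha stood above Tkt in both libraries labelled Hhex-deleted and below it in both wild-type libraries.

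**Figure D2:**
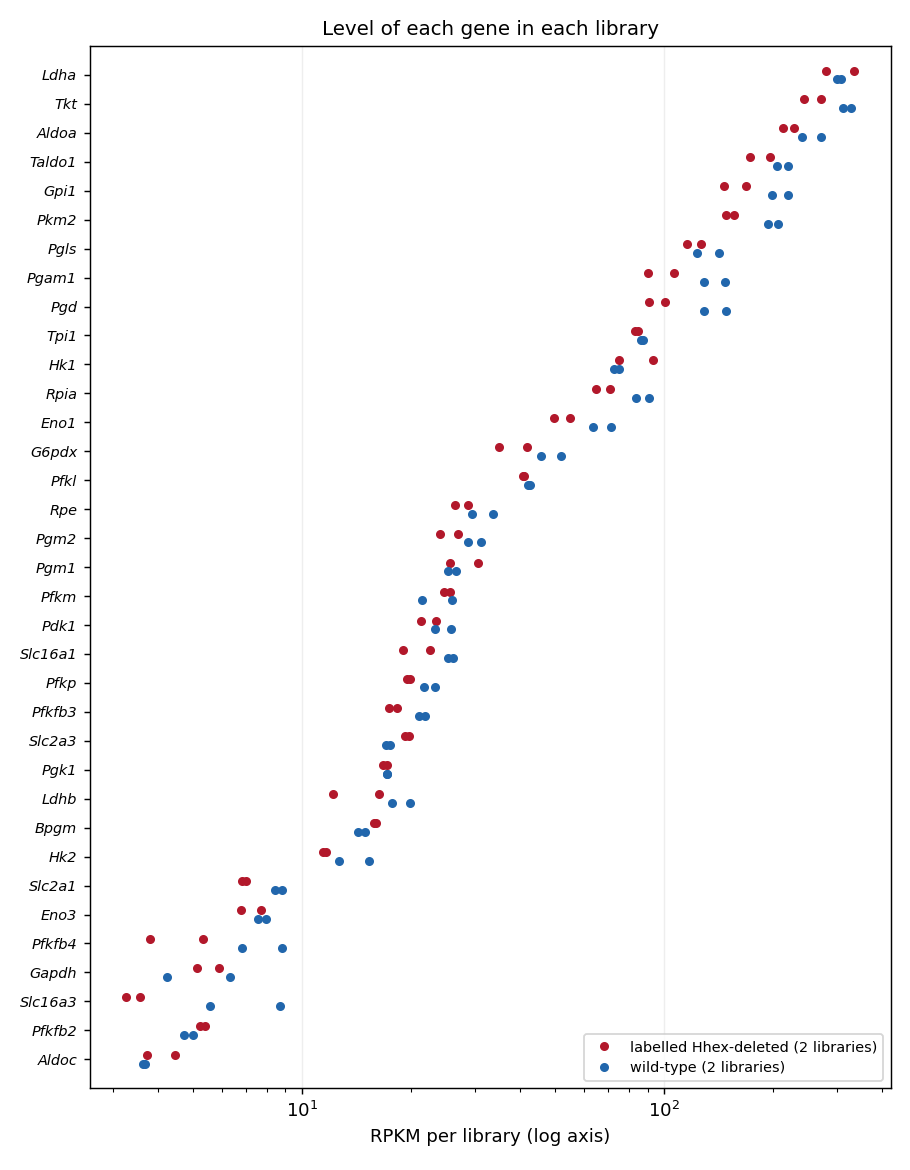
RPKM of each member in each of the 4 libraries on a log axis, ordered by the mean over the libraries, with libraries labelled Hhex-deleted in red and wild-type in blue. Levels span from 3.88 RPKM for Aldoc to 306 RPKM for Ldha, and for most genes the groups lie close beside each other.

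The low place of Gapdh went with reads on its copies. Gapdh had counts of 212 and 190 in the libraries labelled Hhex-deleted, against 213 and 149 in wild-type. Its RPKM was 5.89 and 5.12 (labelled Hhex-deleted) against 6.31 and 4.23 (wild-type), and the groups overlapped. Gm12070 had counts of 2307 and 2141 in the libraries labelled Hhex-deleted, against 2277 and 2425 in wild-type, so the pseudogene held 91.4% to 94.2% of the reads of the pair in every library. Windows of 50 bases were cut from the annotated GENCODE M21 transcripts of each member and looked up in the transcripts of all other genes. For Gapdh 58.4% of windows occurred in another gene, for Pgk1 68.0%, for Eno1 49.5% and for Pgam1 41.5%. For 19 members no window was shared.

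Eno1 also had a copy with more reads than itself, though its own level was not among the lowest. Its copy Eno1b counted 5247 and 5057 reads (labelled Hhex-deleted) against 5593 and 7116 (wild-type), or 64.4% to 66.2% of the reads of the pair. Aldoart1 held 7.60% to 8.20% of the reads it makes up with Aldoa, and G6pd2 held 8.86% to 9.86% of those it makes up with G6pdx. How the authors' counting treated reads that match several genes is not given in the sources used here, so levels of these 4 genes are uncertain. The same limit holds for the other members with shared windows, among them Pgk1, Pgam1 and Pkm2 (23.7% of windows), for which no copy was matched in the count table. With the reads of their copies added, the log2 fold change was -0.38 ± 0.11 for Eno1, -0.21 ± 0.09 for Aldoa and -0.34 ± 0.12 for G6pdx, close to the values of these genes alone. For Gapdh, to which 6 copies were added, it was -0.15 ± 0.08, against 0.06 ± 0.25 for Gapdh alone, and neither value passed (edgeR adjusted p = 0.473 and 0.949). Among the 19 members with no shared window 10 were lower at an unadjusted p under 0.05 and the median log2 fold change was -0.20. Among the other 16 members 7 were lower with a median of -0.21. Over all genes tested 8.23% were lower at that p, and the median was -0.01.

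**Figure D3:**
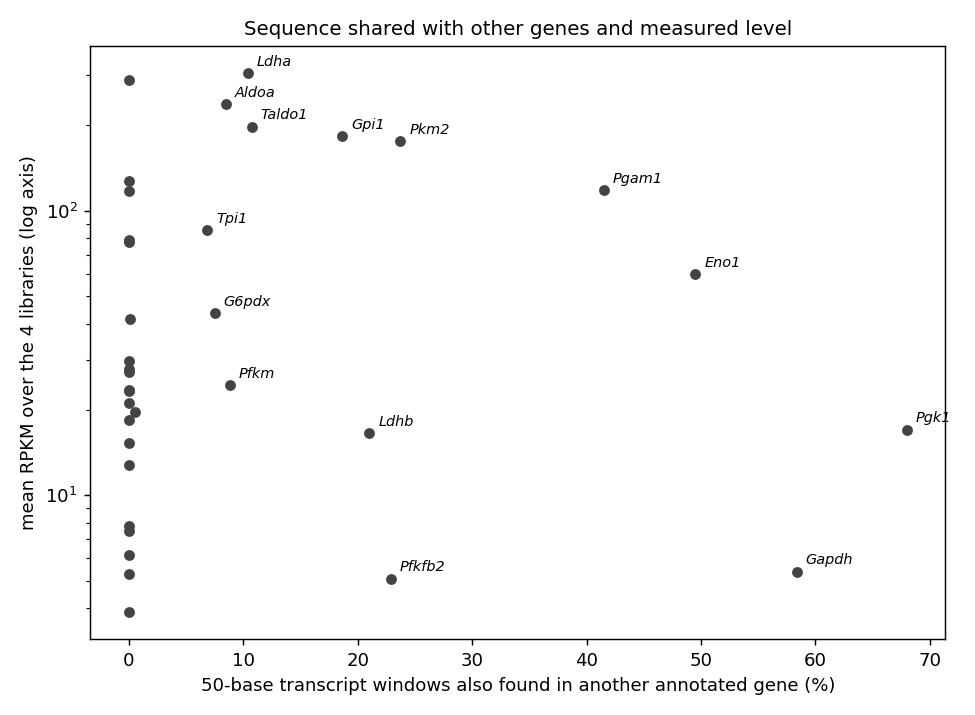
Share of each member's 50-base transcript windows that also occurs in another annotated gene, in percent, against its mean RPKM over the 4 libraries on a log axis, with members above 5% named. Pgk1 (68.0%) and Gapdh (58.4%) share most, and they stand at 17.0 and 5.39 RPKM.

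The glucose carriers had opposite directions, and the groups overlapped in their sum. Slc2a1, the widely expressed glucose carrier, had 6.82 and 7.01 RPKM in the libraries labelled Hhex-deleted, against 8.83 and 8.45 RPKM in wild-type. Slc2a3, a carrier of higher affinity, had 19.3 and 19.8 RPKM (labelled Hhex-deleted) against 17.5 and 17.0 RPKM (wild-type). The groups did not overlap for either gene, as in 21.9% (higher) and 23.7% (lower) of all genes tested, and the directions were opposite. The log2 fold changes, here and below with their SE, were -0.32 ± 0.11 for Slc2a1 and 0.18 ± 0.07 for Slc2a3 (adjusted p = 0.225 and 0.314 by edgeR). Slc2a1 made up 26.1% and 26.1% of their summed RPKM in the libraries labelled Hhex-deleted, against 33.5% and 33.2% in wild-type. The sum of the carriers was 26.4 ± 0.529 RPKM in the libraries labelled Hhex-deleted and 25.9 ± 0.61 RPKM in wild-type (SD, n = 2 each).

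Hexokinases, which trap glucose by phosphorylation, showed opposite directions as well. Hk1, more abundant than Hk2, had 93.1 and 75.1 RPKM in the libraries labelled Hhex-deleted, against 74.9 and 72.5 RPKM in wild-type. Its difference rested on labelled Hhex-deleted replicate 1, without which the log2 fold change was 0.03 in place of 0.19 ± 0.11 (adjusted p = 0.526 by edgeR with all libraries). Hk2, the inducible isoenzyme, had 11.5 and 11.7 RPKM (labelled Hhex-deleted) against 12.6 and 15.3 RPKM (wild-type), a log2 fold change of -0.27 ± 0.11 (adjusted p = 0.292 by edgeR). That value was -0.12 without wild-type replicate 2, and leaving out wild-type replicate 1 instead gave -0.40. The share of Hk1 in the pair was 89.0% and 86.6% in the libraries labelled Hhex-deleted, against 85.6% and 82.6% in wild-type.

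Gpi1, which turns glucose 6-phosphate into fructose 6-phosphate, had 168 and 146 RPKM in the libraries labelled Hhex-deleted, against 199 and 219.5 RPKM in wild-type. Both libraries labelled Hhex-deleted lay below both wild-type libraries. The log2 fold change was -0.41 ± 0.10 (adjusted p = 0.103 by edgeR). Without labelled Hhex-deleted replicate 1 it was -0.52 with an edgeR adjusted p of 0.0451, and DESeq2 gave an adjusted p of 0.00405.

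Phosphofructokinase, the committed step of glycolysis, is built from liver, muscle and platelet type subunits. Pfkl, the liver type, was the most abundant, with 41.0 and 40.8 RPKM in the libraries labelled Hhex-deleted, against 42.6 and 42.2 RPKM in wild-type. Pfkm, the muscle type, had 25.7 and 24.6 RPKM (labelled Hhex-deleted) against 25.9 and 21.4 RPKM (wild-type), and the groups overlapped. Pfkp, the platelet type, had 19.9 and 19.4 RPKM (labelled Hhex-deleted) against 21.7 and 23.3 RPKM (wild-type), with no overlap. The log2 fold changes were -0.05 ± 0.07, 0.09 ± 0.11 and -0.19 ± 0.08, and none passed (edgeR adjusted p = 0.829, 0.792 and 0.295). Their shares of the summed RPKM were 47.4% and 48.1% for Pfkl in the libraries labelled Hhex-deleted, against 47.2% and 48.6% in wild-type. Pfkp made up 23.0% and 22.9% in the libraries labelled Hhex-deleted, against 24.1% and 26.8% in wild-type, and Pfkm 29.7% and 29.0% (labelled Hhex-deleted) against 28.7% and 24.7% (wild-type).

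The bifunctional Pfkfb enzymes make and remove fructose 2,6-bisphosphate, the activator of phosphofructokinase. Pfkfb3, the most abundant here, had 18.3 and 17.4 RPKM in the libraries labelled Hhex-deleted, against 21.1 and 21.8 RPKM in wild-type. Pfkfb4 had 3.81 and 5.32 RPKM (labelled Hhex-deleted) against 6.85 and 8.78 RPKM (wild-type), coming from 374 and 539 reads (labelled Hhex-deleted) against 631 and 843 (wild-type). Pfkfb2 went the other way, with 5.23 and 5.40 RPKM (labelled Hhex-deleted) against 5.01 and 4.73 RPKM (wild-type). The groups did not overlap for any gene of this family. Among all genes tested, groups did not overlap in 21.9% (higher) and 23.7% (lower). Fitted log2 fold changes were -0.27 ± 0.07 for Pfkfb3, -0.78 ± 0.20 for Pfkfb4 and 0.13 ± 0.08 for Pfkfb2 (adjusted p = 0.143, 0.134 and 0.563 by edgeR). DESeq2 called Pfkfb4 lower with an adjusted p of 0.0187. The share of Pfkfb4 in the family was 14.0% and 18.9% in the libraries labelled Hhex-deleted, against 20.8% and 24.9% in wild-type. That of Pfkfb2 was 19.2% and 19.2% (labelled Hhex-deleted) against 15.2% and 13.4% (wild-type), and that of Pfkfb3 was 66.9% and 61.9% (labelled Hhex-deleted) against 64.0% and 61.8% (wild-type).

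Aldolase splits fructose 1,6-bisphosphate, and triose phosphate isomerase interconverts the resulting trioses. Aldoa had 228 and 213 RPKM in the libraries labelled Hhex-deleted, against 241 and 271 RPKM in wild-type. Aldoc, the brain type, was low throughout, with 3.72 and 4.46 RPKM (labelled Hhex-deleted) against 3.64 and 3.68 RPKM (wild-type). Aldoa thus made up 98.4% and 98.0% of the pair in the libraries labelled Hhex-deleted, against 98.5% and 98.7% in wild-type. Tpi1 had 84.5 and 82.9 RPKM (labelled Hhex-deleted) against 86.2 and 87.7 RPKM (wild-type), a narrow gap with no overlap. The log2 fold changes were -0.21 ± 0.09, 0.16 ± 0.19 and -0.06 ± 0.07 for Aldoa, Aldoc and Tpi1, with edgeR adjusted p-values of 0.333, 0.793 and 0.815.

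In lower glycolysis, the payoff steps from triose phosphate to pyruvate, Pgk1 stood almost level while Pgam1, Eno1 and Pkm2 had fitted levels lower by 28.6%, 22.6% and 24.1%. Pgk1, the first ATP-making kinase, had 17.1 and 16.7 RPKM in the libraries labelled Hhex-deleted, against 17.1 and 17.1 RPKM in wild-type. It lies on the X chromosome, and labelled Hhex-deleted replicate 1, the library with high Xist, did not stand apart in it. Its log2 fold change was -0.02 ± 0.09 (adjusted p = 0.962 by edgeR), and its sign turned with other scalings, to 0.0059 with library totals alone and 0.0043 with upper quartile factors.

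Pgam1, which moves the phosphate of phosphoglycerate, had 107 and 90.4 RPKM in the libraries labelled Hhex-deleted, against 129 and 147 RPKM in wild-type. Its relative Bpgm, which makes the 2,3-bisphosphoglycerate of red cells, had 15.85 and 16.01 RPKM (labelled Hhex-deleted) against 14.96 and 14.27 RPKM (wild-type). The directions were opposite and the groups did not overlap for either, as in 21.9% (higher) and 23.7% (lower) of all genes tested. Fitted log2 fold changes were -0.49 ± 0.11 and 0.12 ± 0.09 (adjusted p = 0.0961 and 0.628 by edgeR). Without labelled Hhex-deleted replicate 1, Pgam1 passed (log2 fold change -0.61, edgeR adjusted p = 0.0470), and DESeq2 gave it an adjusted p of 0.00303. Of 12 erythroid markers 1 was higher, Car2 (adjusted p = 0.049 by edgeR), while limma-voom called 0 of the list and DESeq2 called 1 higher. The edgeR call of Car2 did not survive every choice of libraries. Its log2 fold change was 0.68 with all libraries and ran from 0.55 to 0.83 with a library left out. The summed level of the list was 1821 and 1574 CPM in the libraries labelled Hhex-deleted against 1289 and 1142 CPM in wild-type, with no marker at 0 in all libraries. Of the 12 markers 11 had positive log2 fold changes, against 48.8% of all genes tested, and the list median was 0.45. In 3 of the 12 both libraries labelled Hhex-deleted lay above both wild-type libraries, an order seen in 21.9% of all genes tested. The part of the erythroid list in the values of Bpgm was not tested.

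Eno1, the enolase of most tissues, had 54.9 and 49.8 RPKM in the libraries labelled Hhex-deleted, against 63.6 and 71.5 RPKM in wild-type. Eno3, the muscle type, had 6.77 and 7.71 RPKM (labelled Hhex-deleted) against 7.97 and 7.54 RPKM (wild-type), and its groups overlapped. Pkm2, pyruvate kinase, had 148 and 155 RPKM (labelled Hhex-deleted) against 194 and 206 RPKM (wild-type). The count does not separate the M1 and M2 splice forms of that gene. The log2 fold changes were -0.37 ± 0.09 for Eno1, -0.10 ± 0.15 for Eno3 and -0.40 ± 0.08 for Pkm2 (adjusted p = 0.118, 0.848 and 0.063 by edgeR). Eno1 made up 89.0% and 86.6% of its pair in the libraries labelled Hhex-deleted, against 88.9% and 90.5% in wild-type. DESeq2 called Eno1 and Pkm2 lower (adjusted p = 0.0349 and 0.000287), and edgeR called Pkm2 with no filter on low counts (adjusted p = 0.0455).

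Lactate dehydrogenase turns pyruvate into lactate and back. Ldha had 335 and 280.3 RPKM in the libraries labelled Hhex-deleted, against 307 and 299.9 RPKM in wild-type, and the wild-type values lay inside the range of the other group. Ldhb, the heart type subunit, had 16.3 and 12.2 RPKM (labelled Hhex-deleted) against 17.8 and 19.9 RPKM (wild-type). Log2 fold changes were 0.02 ± 0.10 and -0.40 ± 0.17 (adjusted p = 0.967 and 0.315 by edgeR). Without labelled Hhex-deleted replicate 1, the value of Ldha was -0.12 and that of Ldhb -0.63, and without labelled Hhex-deleted replicate 2 that of Ldhb was -0.20. Ldha made up 95.4% and 95.8% of the pair in the libraries labelled Hhex-deleted, against 94.5% and 93.8% in wild-type. Of the transcript windows of Ldhb 21.0% also occur in another gene.

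Monocarboxylate carriers pass lactate across the membrane. Slc16a3, the exporter of highly glycolytic cells, differed most of all members, with 3.27 and 3.57 RPKM in the libraries labelled Hhex-deleted against 5.56 and 8.71 RPKM in wild-type, from 246 and 277 reads (labelled Hhex-deleted) against 393 and 641 (wild-type). The wild-type libraries differed from each other by more than the lower of them differed from the libraries labelled Hhex-deleted. Slc16a1, the more abundant carrier, had 22.5 and 19.0 RPKM (labelled Hhex-deleted) against 26.1 and 25.2 RPKM (wild-type). On the log2 scale the fold changes were -1.06 ± 0.24 for Slc16a3 and -0.31 ± 0.10 for Slc16a1 (adjusted p = 0.0866 and 0.204 by edgeR). For Slc16a3 the value was -1.35 without wild-type replicate 1 (edgeR adjusted p = 0.0354) and -0.69 without wild-type replicate 2, and DESeq2 gave an adjusted p of 0.00274. Slc16a1 made up 87.3% and 84.2% of the pair in the libraries labelled Hhex-deleted, against 82.4% and 74.3% in wild-type. The sum of both carriers was 24.2 ± 2.32 RPKM in the libraries labelled Hhex-deleted, against 32.8 ± 1.59 RPKM in wild-type (SD, n = 2 each).

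Pdk1, which switches off pyruvate dehydrogenase and so keeps pyruvate for lactate, had 21.3 and 23.4 RPKM in the libraries labelled Hhex-deleted, against 25.7 and 23.4 RPKM in wild-type. The groups overlapped, and the log2 fold change was -0.14 ± 0.09 (adjusted p = 0.575 by edgeR). Of 12 measured genes for pyruvate entry to mitochondria none passed edgeR's test, DESeq2 and limma-voom called 0, and 0 had an unadjusted p below 0.05. Their log2 fold changes ran from -0.22 to 0.11 with a median of -0.07. The smallest p-values were those of Mpc2, a pyruvate carrier subunit (-0.19 ± 0.10, adjusted p = 0.435 by edgeR), and Dlat, a pyruvate dehydrogenase subunit (-0.16 ± 0.08, adjusted p = 0.437 by edgeR).

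All 7 pentose phosphate genes had negative log2 fold changes, from -0.53 for Pgd to -0.13 for Pgls, with a median of -0.31. In 6 of these 7 genes both libraries labelled Hhex-deleted lay below wild-type, as in 23.7% of all genes tested. Negative values were found in 26 of all 35 members and in 51.2% of all genes, and positive values in 9 members and in 48.8% of all genes. In the oxidative branch, which makes NADPH, G6pdx had 41.8 and 35.1 RPKM in the libraries labelled Hhex-deleted, against 45.8 and 51.9 RPKM in wild-type. G6pdx encodes glucose 6-phosphate dehydrogenase and lies on the X chromosome, and labelled Hhex-deleted replicate 1, with high Xist, was the higher library of its group. Pgls, the lactonase, had 126 and 116 RPKM (labelled Hhex-deleted) against 123 and 142 RPKM (wild-type), with overlap. Pgd, phosphogluconate dehydrogenase, had 100.3 and 91.0 RPKM (labelled Hhex-deleted) against 129 and 148 RPKM (wild-type).

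The log2 fold changes of this branch were -0.35 ± 0.11 for G6pdx, -0.13 ± 0.10 for Pgls and -0.53 ± 0.10 for Pgd (adjusted p = 0.205, 0.63 and 0.057 by edgeR). Pgd had the lowest unadjusted p of the members, and no window of its transcripts is shared. It passed without labelled Hhex-deleted replicate 1 (log2 fold change -0.61, edgeR adjusted p = 0.0496), with no filter on low counts (adjusted p = 0.0351) and by DESeq2 (adjusted p = 0.000111). The summed RPKM of the branch was 255 ± 18.8 in the libraries labelled Hhex-deleted and 320.1 ± 31.6 in wild-type (SD, n = 2 each).

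In the non-oxidative branch, which links ribose 5-phosphate back to glycolysis, both libraries labelled Hhex-deleted lay below both wild-type libraries for all 4 genes, an order seen in 23.7% of all genes tested. Tkt, transketolase, had 272 and 244 RPKM in the libraries labelled Hhex-deleted, against 313 and 329 RPKM in wild-type. Taldo1, transaldolase, had 196 and 172 RPKM (labelled Hhex-deleted) against 205 and 219 RPKM (wild-type). Rpia, ribose phosphate isomerase, had 70.9 and 64.9 RPKM (labelled Hhex-deleted) against 83.5 and 91.0 RPKM (wild-type). Rpe, ribulose phosphate epimerase, completed the branch with 26.5 and 28.7 RPKM (labelled Hhex-deleted) against 29.6 and 33.7 RPKM (wild-type). Their log2 fold changes were -0.31 ± 0.08, -0.20 ± 0.09, -0.36 ± 0.09 and -0.20 ± 0.09 for Tkt, Taldo1, Rpia and Rpe, with edgeR adjusted p-values of 0.132, 0.381, 0.104 and 0.4. DESeq2 called Tkt and Rpia lower (adjusted p = 0.0172 and 0.0173).

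Phosphoglucomutases interconvert glucose 1-phosphate and glucose 6-phosphate and so link glycolysis with glycogen. The files use older names: their Pgm1 has Entrez identifier 66681, which RefSeq now calls Pgm2, and their Pgm2 has 72157, now Pgm1. By the names of the files, Pgm1 had 30.7 and 25.6 RPKM in the libraries labelled Hhex-deleted, against 26.6 and 25.3 RPKM in wild-type, with overlap. Pgm2 had 26.9 and 24.1 RPKM (labelled Hhex-deleted) against 28.7 and 31.1 RPKM (wild-type), without overlap. This gave log2 fold changes of 0.12 ± 0.11 and -0.23 ± 0.09 (adjusted p = 0.715 and 0.306 by edgeR), and that of Pgm1 was -0.02 without labelled Hhex-deleted replicate 1. The share of Pgm1 was 53.3% and 51.5% in the libraries labelled Hhex-deleted, against 48.1% and 44.8% in wild-type.

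Over all 13 shares that were compared within families, 2 against 2 libraries cannot give an exact two-sided permutation p below 0.333, so shares are a description. The groups did not overlap for 10 of the 13. Among the levels of all genes tested, groups did not overlap in 21.9% (higher) and 23.7% (lower). Shares of 1 family are parts of a whole, so they are not independent of each other. The widest differences, in percentage points of labelled Hhex-deleted minus wild-type, were 7.37 for Slc16a1, -7.20 for Slc2a1, -6.39 for Pfkfb4, 5.91 for Pgm1 and 4.88 for Pfkfb2. Their order depended on single libraries. For Slc16a1 the difference was 3.32 without wild-type replicate 2, and leaving out wild-type replicate 1 instead gave 11.4. For Pfkfb4 it was -3.91 without labelled Hhex-deleted replicate 1, while that of Slc2a1 ran only from -7.39 to -7.01 with a library left out.

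**Figure D4:**
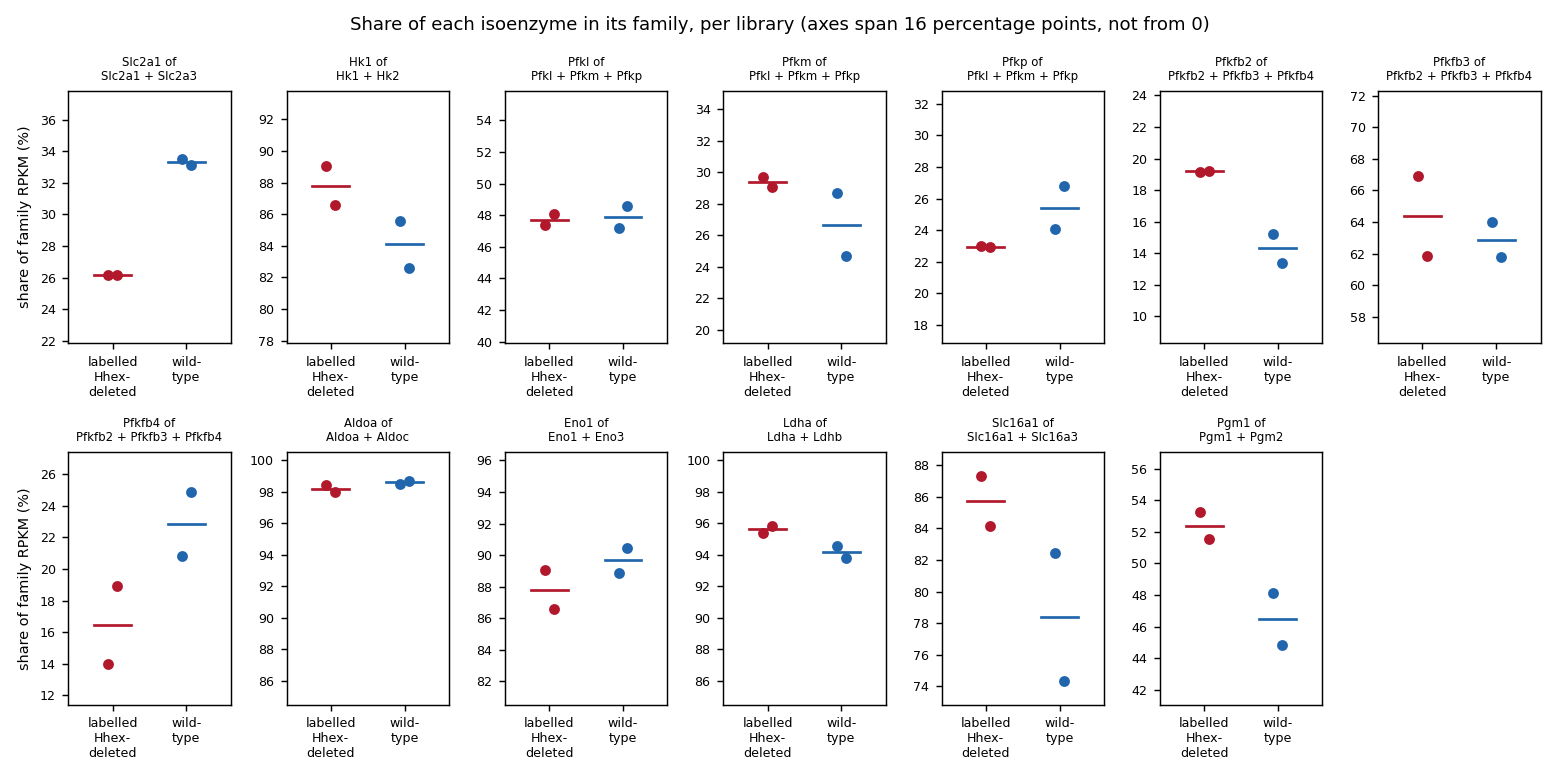
Share of each isoenzyme in the summed RPKM of its family, in percent, for the 2 libraries labelled Hhex-deleted (red) and the 2 wild-type libraries (blue), with the mean of each group as a line. Each axis spans 16 percentage points and does not start at 0. Slc2a1 stands at 26.1% and 26.1% (labelled Hhex-deleted) against 33.5% and 33.2% (wild-type), while Pfkl does not separate.

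Of 33 further isoenzymes and carriers, 22 had enough reads to test and 1 passed, Hk3, against 1.12% of all genes lower. Hk3, the hexokinase of myeloid cells, had 265 and 231 CPM in the libraries labelled Hhex-deleted, against 399 and 468 CPM in wild-type. It fell by 0.81 ± 0.11 on the log2 scale (adjusted p = 0.0255 by edgeR). With 1 library fewer the adjusted p was 0.0562 (labelled Hhex-deleted replicate 2 left out) or 0.103 (wild-type replicate 2 left out), which ended the call. Per length, Hk3 stood at 78.3 RPKM in the libraries labelled Hhex-deleted, against 137 RPKM in wild-type, so that in wild-type its level exceeded that of Hk1 and in the libraries labelled Hhex-deleted it did not. The median log2 fold change of the 22 genes was -0.20.

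None of 28 measured regulators and hypoxia response genes passed edgeR's test. At an unadjusted p under 0.05, 3 were higher and 4 lower, against 7.59% and 8.23% of all genes tested. DESeq2 called 1 higher and 3 lower, against 3.36% and 3.46% of all genes, and limma-voom called 0. The smallest p-values were those of Mlx, a partner of the glucose-sensing carbohydrate response factors (-0.39 ± 0.09, adjusted p = 0.0886 by edgeR), and Ero1l, an oxidase of the endoplasmic reticulum (-0.43 ± 0.10, adjusted p = 0.101 by edgeR). Chosen after their values were seen, Hif1a, the hypoxia-inducible factor subunit, had a log2 fold change of 0.08 ± 0.08, and Myc, an activator of glycolytic genes, had 0.29 ± 0.10 (adjusted p = 0.738 and 0.21 by edgeR). Besides Mlx and Ero1l, the genes lower at an unadjusted p under 0.05 were Vegfa (-0.70 ± 0.18) and P4ha1 (-0.41 ± 0.10). Besides Myc, those higher were Meis1 (0.43 ± 0.13) and Ankrd37 (0.76 ± 0.31). Of 11 genes of the glycogen and nucleotide sugar branch none passed edgeR's test. At an unadjusted p under 0.05, 1 was higher and 2 were lower, against the same 7.59% and 8.23% of all genes. DESeq2 called 2 lower, against 3.46% of all genes, and limma-voom called 0. Pygl, a glycogen phosphorylase, had 102 and 100.7 CPM (labelled Hhex-deleted) against 135 and 159 CPM (wild-type) (-0.54 ± 0.10, adjusted p = 0.0525 by edgeR), and Gys1, a glycogen synthase, had 50.4 and 49.1 CPM (labelled Hhex-deleted) against 62.2 and 87.0 CPM (wild-type) (-0.58 ± 0.16, adjusted p = 0.163 by edgeR).

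Marker lists of cell types were summed in the same libraries. Over all genes tested, 1.12% passed edgeR's test as lower and 1.48% as higher. In 23.7% of all genes both libraries labelled Hhex-deleted lay below both wild-type libraries. Of 8 granulocyte monocyte progenitor markers 3 were lower, Elane, Ms4a3 and Ly6c2, and all 8 had both libraries labelled Hhex-deleted below wild-type, with a summed level of 12496 and 8982 CPM (labelled Hhex-deleted) against 17892 and 21863 CPM (wild-type). Of 8 mature neutrophil markers none passed edgeR's test, and 1 was lower at an unadjusted p under 0.05, against 8.23% of all genes. DESeq2 called 1 lower, against 3.46% of all genes, and limma-voom called 0. The sum of these markers was 152 and 527 CPM (labelled Hhex-deleted) against 570 and 1118 CPM (wild-type). Of 8 mast cell and basophil markers 6 were higher, with a sum of 1120 and 1005 CPM (labelled Hhex-deleted) against 344 and 349.8 CPM (wild-type), and of 8 B lineage markers 7 were higher, with 121 and 152 CPM (labelled Hhex-deleted) against 39.8 and 44.8 CPM (wild-type). Of the mast cell and basophil markers 1 went the other way, with a log2 fold change of -0.50. No marker of these 4 lists was at 0 in all libraries. None of 12 S, G2 and M phase genes passed with edgeR, DESeq2 or limma-voom, with 0 at an unadjusted p under 0.05 and a sum of 4018 and 3667 CPM (labelled Hhex-deleted) against 3787 and 3850 CPM (wild-type), so the groups overlapped there. Of 10 LSK markers 1 was higher, Cd48, against 5 without labelled Hhex-deleted replicate 1 and 0 without either wild-type library. With a library left out the counts were 2 to 4 lower for the granulocyte monocyte progenitor list, 0 to 1 lower for mature neutrophils, 6 higher for mast cells and basophils and 6 to 7 higher for the B lineage. Of the 10 LSK markers 9 had positive log2 fold changes, against 48.8% of all genes tested, with a median of 0.32. DESeq2 called 2 of them higher and limma-voom 1. The part of these marker lists in the values of the glycolytic and pentose phosphate genes was not tested.

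**Figure D5:**
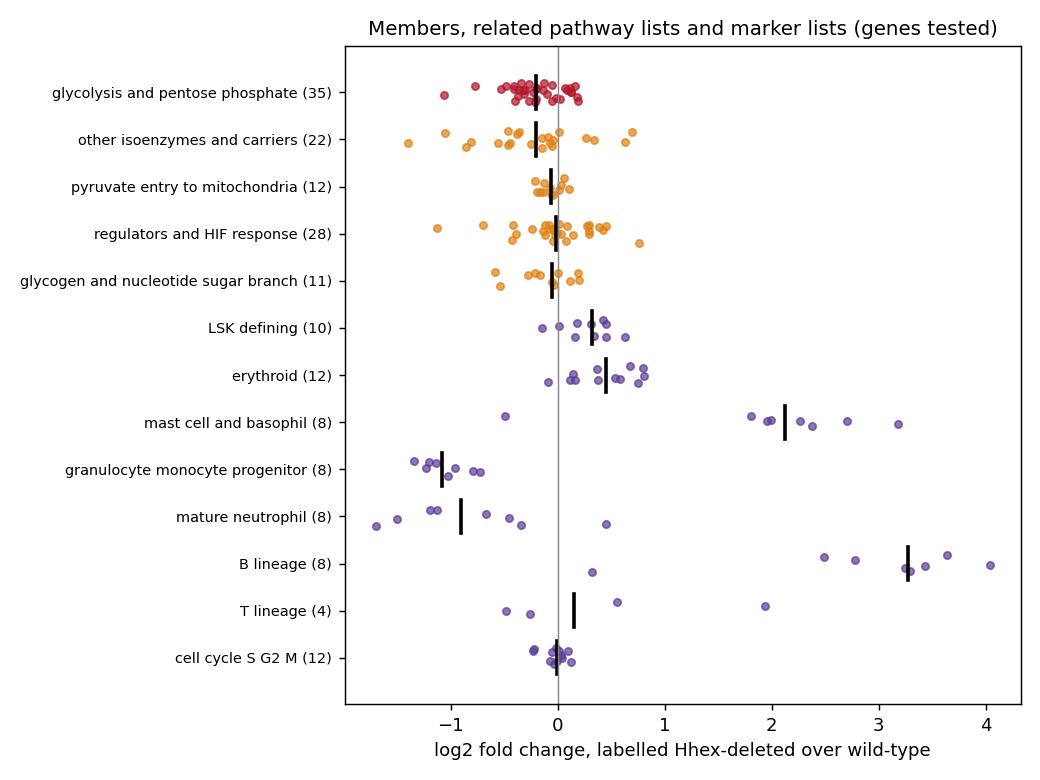
Log2 fold change, labelled Hhex-deleted over wild-type, of the genes tested in each list, with 1 point per gene, a black line at the list median, and the number of genes in brackets: the 35 members (red), related pathway lists (orange) and marker lists (purple). The members centre on -0.20 and the granulocyte monocyte progenitor markers on -1.08, while the S, G2 and M phase genes centre on -0.01.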

How the data were processed

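Per the file headers, the authors deposited raw read counts per Entrez gene with gene lengths, and log2 RPKM values for 12662 genes per library. Subread, featureCounts, limma and the build mm9 appear, without versions, in the submitters' processing notes. Between libraries, sorted log2 RPKM plus log2 gene length had a median gap of 0.000809, so the values had been brought to a shared distribution, and counts were the main data. Counts were fitted with edgeR 4.0.16 (quasi-likelihood, robust, group as the only term) in R 4.3.3 after filterByExpr (minimum count 10, total 15) and TMM scaling. The threshold was an adjusted p of 0.05, SE is the size of the log2 fold change over the square root of F, and CPM and RPKM use TMM-scaled totals of tested genes. DESeq2 1.42.0, limma-voom 3.58.1, other scalings and filters, the log2 RPKM values, a replicate term, single libraries left out and copies added to their genes were alternatives.

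On simulated counts of 14912 genes for this comparison, edgeR found 61% of genes changed 2-fold and 95% of those changed 4-fold, with 10 false calls. The simulation gave all genes the same spread and held no smaller changes. It therefore does not show how often changes as small as those of most members would be found. Every pair of libraries differed by a chi-square of at least 29.7 per degree of freedom. Intervals for counts cover counting error only, and the floor of 3 reads was 0.0995 to 0.109 CPM. Gene names not in the files came from RefSeq (GRCm38.p6), used for names, chromosomes and promoters. The members and lists were chosen with earlier results of these data known. All members are named, and of the related lists those past the threshold or else the 2 smallest p-values.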

Additional observations from a re-analysis of the deposited data

How the results depend on the processing

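No member was called higher under any of the 14 alternatives run. The count of members called lower, 0 with edgeR, was 9 with DESeq2 and 2 with no low-count filter. Over all genes these settings called 167, 508 and 272 lower. The median log2 fold change of the members, -0.20, ran from -0.28 to -0.15 with a library left out. The replicate number as a block called 1 member lower, Pfkfb4, and ended the call of Hk3 (adjusted p = 0.0632). The numbers are not stated to pair samples, and deviations of same-numbered libraries correlated at 0.326. Of the further isoenzymes and carriers, 1 was lower with edgeR, 3 with DESeq2, 2 with no low-count filter and 0 to 3 with a library left out. Regulators had 1 higher and 3 lower with DESeq2, and 0 to 1 lower with a library left out. The glycogen branch had 2 lower with DESeq2, 1 with no low-count filter and 0 to 1 with a library left out. Signs turned for Pfkm (-0.032 to 0.23 with a library left out), Ldha (-0.12 to 0.15), Pgm1 (-0.019 to 0.25), Gapdh (-0.19 to 0.38, and -0.15 with copies added, an alternative chosen after seeing the data) and Pgk1 (-0.037 to 0.0075 with a library left out, 0.0043 with upper quartile factors and 0.0059 with library totals only). With a library left out the share of Pfkl ran from -0.861 to 0.502 and that of Pfkfb3 from -0.991 to 4.02 percentage points. The cause was not tested. Over all genes edgeR made 388 calls, against 1001 with DESeq2, 251 with library totals only, 179 with the deposited log2 RPKM and 124 to 597 with a library left out. With 2 libraries a group, the spread between libraries limits the precision of every value.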
